A study of Homo sapiens with 6 samples.

Results

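Homologous recombination and Fanconi repair genes were followed here in 22Rv1-ABHD5 cells in the presence and absence of doxycycline (Dox). The 41 genes came from a list of symbols, put together with earlier results of these data known, and were matched by symbol to the 27470 genes of the count table. All 41 were found, 1 of them, MRE11, through an older symbol. 22Rv1 is a castration-resistant human prostate cancer cell line, and the 22Rv1-ABHD5 cells carry ABHD5, the coactivator of the triglyceride lipase ATGL, on a lentiviral pInducer20 vector behind a Dox-inducible promoter after G418 selection. The 3 libraries labelled Control came from these cells grown without Dox and the 3 libraries labelled OE from the same cells grown with Dox, both for 48 h. Both conditions therefore carry the transgene, and they differ by Dox as well as by ABHD5. No library came from parent 22Rv1 cells with Dox, so that an effect of Dox itself and an effect of ABHD5 cannot be told apart in these data. The labels do not say whether the libraries came from separate cultures, and the p-values measure only the spread between these libraries, which may be technical.

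Homologous recombination repairs a broken chromosome by copying the sister chromatid. Nucleases cut back the broken end to single-stranded DNA, BRCA2 and its partners load a recombinase onto it, and the filament then invades the intact copy. The Fanconi pathway detects DNA strands that are crosslinked to each other, marks the FANCI-FANCD2 pair with ubiquitin and hands the cut crosslink to recombination. Both pathways work mainly in S and G2 phase, and many of their genes are transcribed under E2F control as cells enter S phase.

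Poly(A) RNA was read near its 3' end, and the libraries held 3394672 to 7271771 counts on genes. Sampling noise was exceeded by the differences within each pair of replicates. ABHD5, the induced gene, was at 63.5, 58.0 and 62.8 CPM (counts per 1000000 counts, scaled between libraries by TMM, the trimmed mean of M values) without Dox and at 126, 131 and 91.7 CPM with Dox, a log2 fold change of 0.91 (SE 0.15, adjusted p = 0.000197777, edgeR's quasi-likelihood test). Of 9 prostate luminal markers, 8 had over 10 counts in every library, and their summed level was 1442 to 1517 CPM without Dox and 898 to 991 CPM with Dox, and the part of this in the results was not tested. Fibroblast markers summed to at most 7.62 CPM and leukocyte markers to at most 1.86 CPM. The basal keratins KRT5 and KRT14 and the T cell gene CD3E were at 0 in all libraries. Between 32.5% and 39.5% of reads were on no annotated gene.

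Most of the recombination and Fanconi genes were lower in the cells with Dox, and 1 was much higher. Of the 41 genes, all of which passed the filter on low counts, 21 fell, 1 rose and 19 did not pass the test. The 21 genes are 51.2% of the list, beside 13.7% of all 12233 genes tested that fell (1674 genes). The 1 gene that rose, the kinase gene ATM, is 2.44% of the list, beside 11.9% of all genes tested (1451 genes). The median log2 fold change of the 41 genes was -0.48, beside 0.02 over all genes tested. A gene is said to have fallen or risen where edgeR's quasi-likelihood test gave it an adjusted p below 0.05, with the adjustment made over the whole table, and differences are log2 fold changes with Dox against without Dox.

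The fall was broad and moderate. The estimate was below 0 for 33 of the 41 genes, and of those that fell RAD51C alone had an estimated fall of at least 2-fold. In 23 genes the highest library with Dox was below the lowest without Dox, beside 20.5% of all genes tested. In 3 genes, ATM, ATR and FANCE, the groups were separate in the other direction, beside 19% of all genes tested. With library totals alone in place of TMM, 16 genes fell and 2 rose, ATR being the other, and 65.7% of all calls were rises in place of 46.4%. That scaling moved the median of all genes from 0.02 to 0.14 on the log2 scale. The number that fell was 13 without Control replicate 3, beside 11.3% of all genes tested, and 14 without OE replicate 1, beside 9.94%. The share of all genes tested that fell was 13.7% in the main fit and 9.29% with library totals alone.

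**Figure D1:**
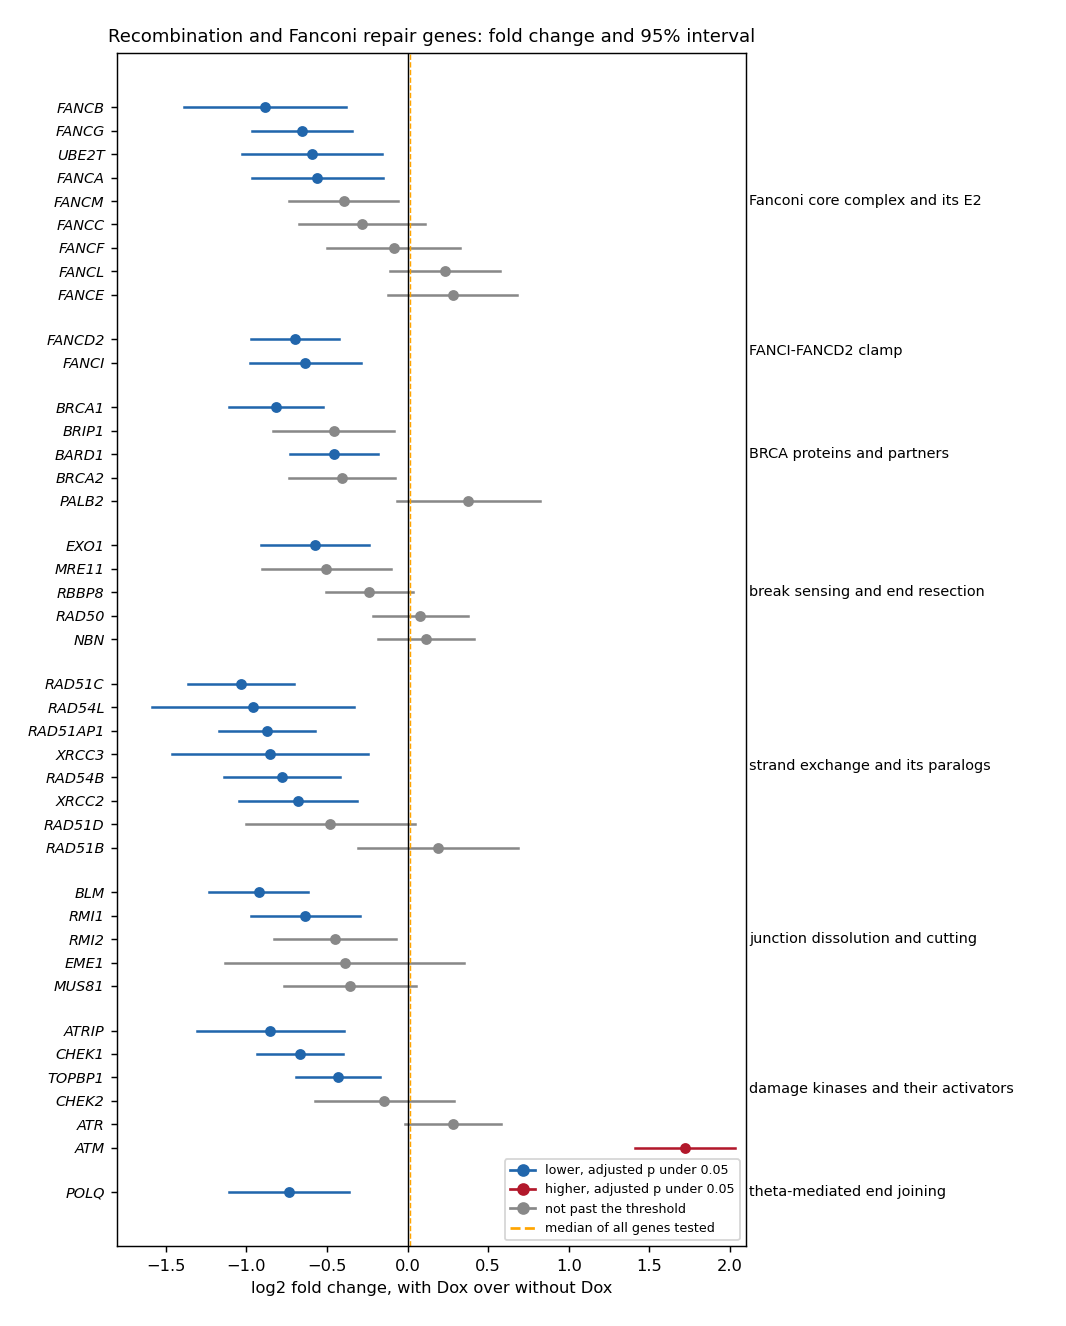
Log2 fold change (with Dox against without Dox, x axis) of each of the 41 genes, grouped by role, with the unadjusted 95% interval as a bar. Blue points are the 21 genes that fell, red is ATM, grey points did not pass the test, and the dashed line is the median of all 12233 genes tested, 0.02; the points lie mostly to the left of it.

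**Figure D2:**
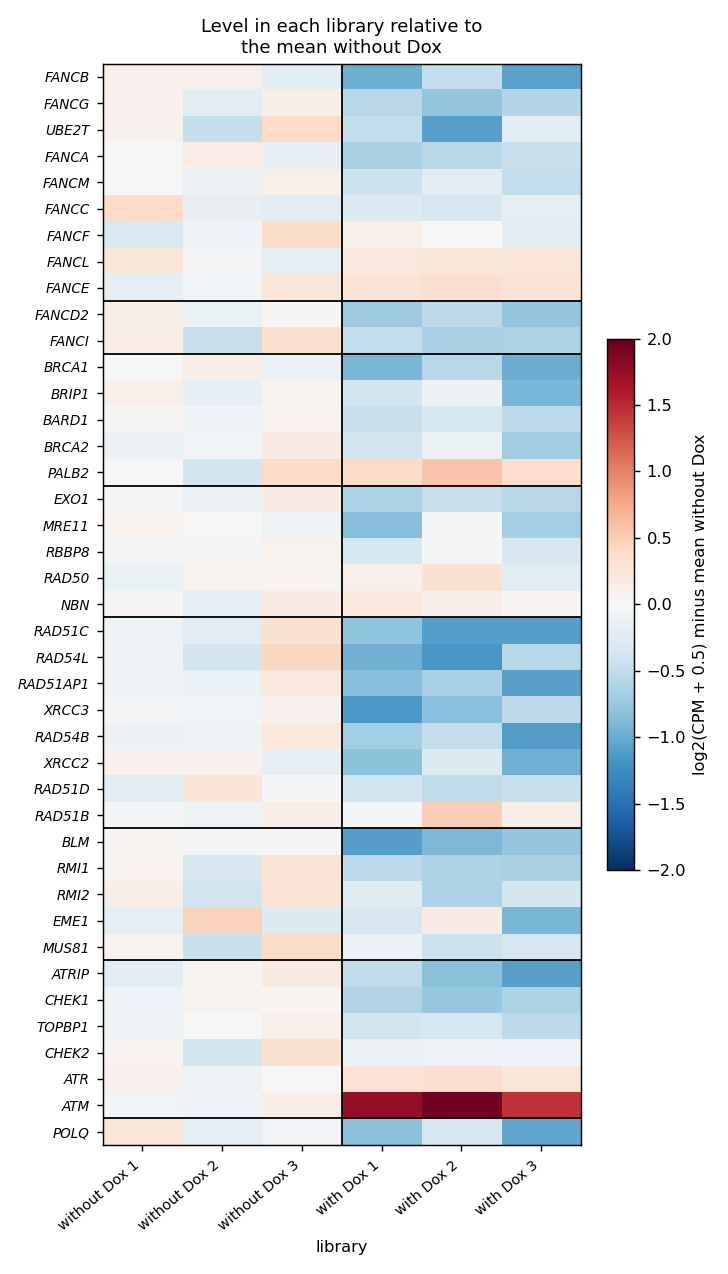
Level of each of the 41 genes (rows) in each of the 6 libraries (columns), as log2(CPM + 0.5) minus the mean of the 3 libraries without Dox. Most rows are lower in all 3 columns with Dox, and ATM is the row that is far higher there.

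The sequence around the start of transcription was read for the 37 genes with an entry among the RefSeq promoters (GRCh38.p14; 250 bases before to 50 after the start). E2F letters were taken as TTTGGCGC or TTTCGCGC or TTTCCCGC or TTTGCCGC on either strand. They were found in 7 of the 37 promoters (18.9%), beside 5.75% of the 9332 tested genes with a promoter and 3.37% of all 27305 genes with one. Among the genes that fell, 6 of 19 promoters held them (31.6%), namely EXO1, FANCA, FANCD2, RMI1, TOPBP1 and XRCC2. Among the genes that did not fall it was 1 of 18 (5.56%), FANCC. With TTTGGCGC and TTTCGCGC alone, 3 of 37 promoters matched (8.11%), beside 2.1% of the tested genes, and the shares were 2 of 19 (10.5%) among the genes that fell and 1 of 18 (5.56%) among the others. The CHR letters TTTGAA, known from genes of G2 and mitosis, were in 5 of 37 (13.5%). This stands beside 8.75% of tested genes and 15.1% of all genes with a promoter. It was 2 of 19 (10.5%) among the genes that fell and 3 of 18 (16.7%) among the others. The CCAAT box letters were in 17 of 37 (45.9%), beside 37.5% of tested genes and 35.7% of all genes with a promoter. Their shares were 9 of 19 (47.4%) among the genes that fell and 8 of 18 (44.4%) among the others. No matches shared bases with each other in these promoters. The shares are descriptions without a test, and a match is not evidence of binding.

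Shown first are the promoters of the 3 genes with E2F letters and the largest falls, each 5' to 3' on the strand of its gene, with the E2F letters in capitals. FANCD2 lies at chr3:10026187-10026486 on the plus strand, XRCC2 at chr7:152676092-152676391 on the minus strand and RMI1 at chr9:83980555-83980854 on the plus strand.
FANCD2: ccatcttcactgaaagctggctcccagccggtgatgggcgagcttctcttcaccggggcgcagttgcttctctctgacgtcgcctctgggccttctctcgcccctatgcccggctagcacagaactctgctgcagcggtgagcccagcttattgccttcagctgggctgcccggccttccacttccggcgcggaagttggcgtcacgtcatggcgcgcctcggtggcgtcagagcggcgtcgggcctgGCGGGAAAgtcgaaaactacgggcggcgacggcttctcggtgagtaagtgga
XRCC2: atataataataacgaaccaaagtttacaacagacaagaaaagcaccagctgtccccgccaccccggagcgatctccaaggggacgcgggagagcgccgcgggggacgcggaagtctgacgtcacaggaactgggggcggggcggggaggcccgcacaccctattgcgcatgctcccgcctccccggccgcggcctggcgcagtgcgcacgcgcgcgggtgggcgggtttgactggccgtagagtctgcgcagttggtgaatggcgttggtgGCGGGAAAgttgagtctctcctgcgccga
RMI1: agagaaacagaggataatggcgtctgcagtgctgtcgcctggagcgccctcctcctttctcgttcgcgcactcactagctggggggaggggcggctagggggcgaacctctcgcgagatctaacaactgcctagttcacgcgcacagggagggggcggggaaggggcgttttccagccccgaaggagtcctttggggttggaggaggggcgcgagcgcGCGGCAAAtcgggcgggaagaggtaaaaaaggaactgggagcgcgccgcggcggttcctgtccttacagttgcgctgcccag
FANCD2 and XRCC2 hold the same E2F letters, and RMI1 holds another of the listed strings.

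The next promoters are those of the 2 genes with the smallest change and no E2F letters, RAD50 at chr5:132556727-132557026 on the plus strand and FANCF at chr11:22625774-22626073 on the minus strand. That of ATM, at chr11:108222817-108223116 on the plus strand, was added after its values were seen. Capitals here mark CCAAT letters, ATTGG being the same letters on the other strand, and in ATM also the CHR letters TTTGAA.
RAD50: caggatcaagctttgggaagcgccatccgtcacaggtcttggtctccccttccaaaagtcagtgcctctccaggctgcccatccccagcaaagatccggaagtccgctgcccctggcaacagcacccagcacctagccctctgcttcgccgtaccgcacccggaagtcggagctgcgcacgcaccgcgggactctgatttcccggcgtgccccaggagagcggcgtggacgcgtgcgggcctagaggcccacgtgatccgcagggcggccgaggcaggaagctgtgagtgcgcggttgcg
FANCF: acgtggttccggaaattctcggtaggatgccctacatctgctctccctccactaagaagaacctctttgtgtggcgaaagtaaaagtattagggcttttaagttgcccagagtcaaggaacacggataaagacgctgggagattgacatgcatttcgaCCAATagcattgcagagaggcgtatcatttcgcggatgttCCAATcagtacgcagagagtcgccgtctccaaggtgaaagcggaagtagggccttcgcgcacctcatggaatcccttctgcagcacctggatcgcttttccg
ATM: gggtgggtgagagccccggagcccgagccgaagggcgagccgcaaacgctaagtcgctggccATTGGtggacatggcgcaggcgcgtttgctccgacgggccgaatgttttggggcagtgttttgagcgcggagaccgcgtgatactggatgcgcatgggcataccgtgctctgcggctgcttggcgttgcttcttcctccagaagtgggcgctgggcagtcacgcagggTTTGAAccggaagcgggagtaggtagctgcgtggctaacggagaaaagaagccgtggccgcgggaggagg
RAD50 held none of the letters searched, and FANCF held CCAAT at 2 places.

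ATM codes for the kinase that responds to double-strand breaks and phosphorylates CHEK2 and many repair proteins. The gene spans chr11:108223044-108369102 on the plus strand (hg38) in 63 exons, and its last exon of 3778 bases overlaps no exon of another gene. It was at 49.4, 48.7 and 56.2 CPM without Dox and at 175, 197 and 140.0 CPM with Dox. The lowest library with Dox was thus well above the highest without Dox, and the mean went from 51.4 ± 4.16 to 171 ± 28.8 CPM (SD, n = 3 libraries). This is a log2 fold change of 1.72 (SE 0.15, adjusted p = 1.668e-07) or 3.30-fold, which ranked 172 by rise among the 12233 genes tested, and it lay between 1.604 and 1.85 under all alternatives. The 2 neighbouring genes were looked at after these values were seen. C11orf65, which overlaps the body of ATM on the other strand, had 10 to 21 counts without Dox and 21 to 24 with Dox (log2 fold change 0.21, adjusted p = 0.740). NPAT, the neighbour that starts close to ATM on the other strand, was at 43.4, 49.3 and 35.1 CPM without Dox and 55.7, 57.6 and 51.2 CPM with Dox (0.37, adjusted p = 0.0848).

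The other checkpoint genes went the other way or did not pass the test. CHEK1, the kinase downstream of ATR that holds back mitosis when replication stalls, was at 95.9, 108 and 106 CPM without Dox and 67.8, 60.9 and 66.2 CPM with Dox. The groups were far apart, with a log2 fold change of -0.67 (SE 0.13, adjusted p = 0.0008216). ATRIP, the partner that brings ATR to single-stranded DNA, fell by 0.85 on the log2 scale (SE 0.22, adjusted p = 0.008056). Its last exon overlaps TREX1 on the same strand over 1016 bases, so that its counts are uncertain. TOPBP1, the activator of ATR, fell by 0.43 (SE 0.12, adjusted p = 0.01643), a call lost without Control replicate 3 (adjusted p = 0.0710) and without OE replicate 1 (adjusted p = 0.0548). ATR itself was at 43.6, 38.1 and 41.02 CPM without Dox and 49.8, 51.5 and 48.3 CPM with Dox. Its groups did not overlap, but its log2 fold change of 0.28 did not pass the test (95% interval -0.01 to 0.58, adjusted p = 0.156). CHEK2, the kinase downstream of ATM, had a value of -0.14 (-0.58 to 0.29, adjusted p = 0.6575).

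**Figure D3:**
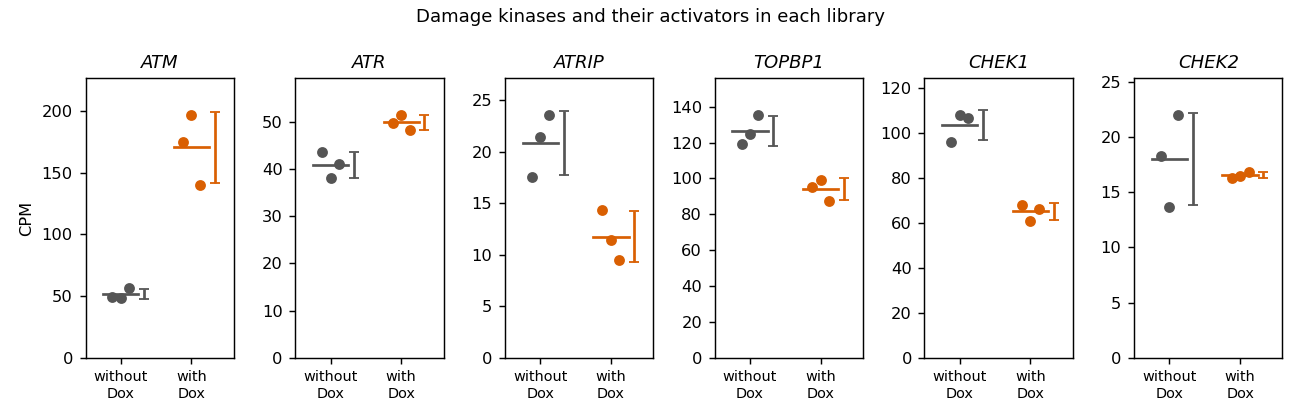
CPM in each library (points) of the checkpoint genes ATM, ATR, ATRIP, TOPBP1, CHEK1 and CHEK2 without and with Dox; bars are means of 3 libraries and error bars are SD. ATM is higher with Dox in every library, and ATRIP, TOPBP1 and CHEK1 are lower in every library.

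Strand exchange had the lowest median of the roles, -0.82, and 6 of its 8 genes fell (75%, beside 13.7% of all genes tested). Differences between roles were not tested. RAD51C, a recombinase paralog that belongs to both paralog complexes, spans chr17:58692573-58735611. It was at 86.7, 80.3 and 114 CPM without Dox and 52.6, 43.1 and 42.7 CPM with Dox. The group means were 93.7 ± 18.0 and 46.1 ± 5.61 CPM (SD, n = 3), a log2 fold change of -1.03 (SE 0.16, adjusted p = 9.869e-05), the largest fall of the 41 genes. XRCC2, another member of the larger paralog complex, was at 66.3, 66.4 and 55.9 CPM without Dox and 35.4, 51.5 and 32.0 CPM with Dox. All its libraries with Dox were below those without, with a log2 fold change of -0.68 (SE 0.17, adjusted p = 0.007521). XRCC3, the partner of RAD51C in the smaller complex, fell by 0.85 (SE 0.29, adjusted p = 0.03714) from a low level of 8.06 to 8.90 CPM, and its call held in only 1 of the 6 fits that left out a library, the one without OE replicate 3. The paralogs RAD51B (0.19, 95% interval -0.30 to 0.69) and RAD51D (-0.48, -1.001 to 0.04), of the larger complex, did not pass the test. Both were at a low level, RAD51B at 9.30 to 14.2 CPM and RAD51D at 7.24 to 12.7 CPM over all libraries. The groups of RAD51D did not overlap, and its interval holds the -0.68 of XRCC2. A difference between the members of the larger complex was not tested.

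RAD51AP1, which stimulates pairing of the filament with its template, was at 187, 178 and 227 CPM without Dox and 109, 125 and 91.9 CPM with Dox. No library overlapped, and the log2 fold change was -0.87 (SE 0.14, adjusted p = 0.000197). RAD54B, a DNA translocase of the same step, was at 53.8, 54.6 and 67.4 CPM without Dox and 36.3, 41.5 and 26.7 CPM with Dox. Here too the groups were separate, with a log2 fold change of -0.78 (SE 0.17, adjusted p = 0.002835). Its relative RAD54L fell by 0.96 (SE 0.30, adjusted p = 0.02512) from 7.13 to 12.7 CPM to 3.90 to 6.17 CPM. The last exon of RAD54L lies wholly within LRRC41 on the other strand, and its call was lost without Control replicate 3 (-0.68, adjusted p = 0.185), without OE replicate 1 (adjusted p = 0.0799) and without OE replicate 2 (adjusted p = 0.0594).

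Of the 5 genes of BRCA proteins and their partners, BRCA1 and BARD1 fell (40%, beside 13.7% of all genes tested). BRCA1, which with BARD1 forms a ubiquitin ligase that promotes end resection and recombinase loading, spans chr17:43044295-43170245. It was at 235, 257 and 213 CPM without Dox and 124, 159 and 118 CPM with Dox. The lowest library without Dox was above the highest with Dox, and the means were 235 ± 21.8 and 134 ± 22.5 CPM (SD, n = 3), a log2 fold change of -0.82 (SE 0.14, adjusted p = 0.0002975). BARD1 fell by 0.46 (SE 0.13, adjusted p = 0.01521), and its adjusted p was 0.0548 to 0.0575 without Control replicate 1, Control replicate 3 or OE replicate 1. BRCA2, the loader of the recombinase, was at -0.41 (95% interval -0.74 to -0.08, adjusted p = 0.06421) without overlap of the groups, and BRIP1, the helicase bound by BRCA1, at -0.46 (-0.83 to -0.08, adjusted p = 0.06793). PALB2, the bridge between BRCA1 and BRCA2, had a value of 0.38 (-0.07 to 0.82, adjusted p = 0.2089). Without OE replicate 2, BRCA2 (-0.55, adjusted p = 0.0139) and BRIP1 (-0.65, adjusted p = 0.00916) passed the test, and without OE replicate 3 they were at -0.26 (adjusted p = 0.236) and -0.25 (adjusted p = 0.273). PALB2 was at 0.21 without Control replicate 2 and at 0.61 without Control replicate 3.

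Of the 5 end resection genes 1 fell (20%, beside 13.7% of all genes tested). This was EXO1, the nuclease of long-range resection. It was at 36.3, 34.4 and 42.1 CPM without Dox and 23.9, 27.0 and 25.4 CPM with Dox. Its groups did not overlap and its log2 fold change was -0.57 (SE 0.16, adjusted p = 0.01295), a call that was lost without Control replicate 3 (adjusted p = 0.0719) and without OE replicate 1 (adjusted p = 0.0558). The genes that start resection did not pass the test, with MRE11, the nuclease of the break-binding complex, at -0.50 (95% interval -0.90 to -0.10, adjusted p = 0.06147) and its cofactor RBBP8 at -0.24 (-0.51 to 0.03). MRE11 passed it without OE replicate 2 (-0.77, adjusted p = 0.00220) and was at -0.35 (adjusted p = 0.251) without OE replicate 1. The interval of MRE11 holds the -0.57 of EXO1, and a difference between them was not tested. The other two subunits of that complex were near 0, RAD50 at 0.08 (-0.22 to 0.37) and NBN at 0.11 (-0.19 to 0.41). The last exon of RAD50 overlaps other genes on both strands.

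Both members of the FANCI-FANCD2 pair fell, beside 13.7% of all genes tested. FANCD2, the subunit whose ubiquitin mark is the read-out of the pathway, spans chr3:10026370-10101932 and was at 143, 120.0 and 134 CPM without Dox and 79.4, 90.4 and 75.8 CPM with Dox. These groups did not overlap, with means of 132 ± 11.6 and 81.9 ± 7.64 CPM (SD, n = 3) and a log2 fold change of -0.70 (SE 0.13, adjusted p = 0.000678). FANCI fell by 0.63 (SE 0.16, adjusted p = 0.008107), a call lost without Control replicate 3 (-0.47, adjusted p = 0.0547), and its last exon overlaps POLG on the other strand.

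Of the 9 genes of the Fanconi core complex and its E2 enzyme, 4 fell (44.4%, beside 13.7% of all genes tested). The median of the 9 was -0.40, and the estimate was below 0 for 7 of them. Differences between these genes were not tested. FANCG, a scaffold subunit, was at 66.3, 53.7 and 67.6 CPM without Dox and 42.0, 35.6 and 41.4 CPM with Dox. The groups were separate and the log2 fold change was -0.66 (SE 0.15, adjusted p = 0.003179), although its last exon overlaps another gene on the same strand. FANCB, which holds the ligase module together, fell by 0.88 (SE 0.24, adjusted p = 0.01094) from 13.6 to 17.1 CPM to 7.22 to 11.1 CPM. FANCA, another scaffold subunit, fell by 0.56 (SE 0.19, adjusted p = 0.04264), and UBE2T, the E2 enzyme that supplies the ubiquitin, fell by 0.59 (SE 0.21, adjusted p = 0.04243). UBE2T was the 1 called gene whose libraries overlapped, at 165, 112 and 206 CPM without Dox and 111, 73.2 and 135 CPM with Dox, and the calls of FANCA and UBE2T were each lost under 9 alternatives. When 1 library was left out, FANCA held its call only without Control replicate 3, and UBE2T only without Control replicate 2 or OE replicate 3.

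The remaining core genes did not pass the test. FANCL, the ubiquitin ligase subunit, had a value of 0.23 (95% interval -0.11 to 0.58) and FANCE, which contacts FANCD2, of 0.28 (-0.12 to 0.68). FANCC was at -0.28 (-0.67 to 0.11) and FANCF, an adaptor subunit, at -0.09 (-0.50 to 0.32). FANCM, the translocase that anchors the complex on DNA, was at -0.40 (-0.73 to -0.06, adjusted p = 0.08023) without overlap of the groups, and passed the test without OE replicate 2 (adjusted p = 0.0493), with an adjusted p of up to 0.220 when another library was left out. The last exons of FANCA, FANCF and FANCL overlap other genes on the opposite strand, and how the counting used strand is not stated.

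Among the 5 genes that dissolve or cut recombination intermediates, BLM and RMI1 fell (40%, beside 13.7% of all genes tested). BLM, the helicase that unwinds double Holliday junctions, was at 63.7, 59.5 and 59.9 CPM without Dox and 28.1, 32.6 and 35.5 CPM with Dox. Its 3 libraries without Dox lay close together and well above those with Dox, at 61.1 ± 2.33 and 32.0 ± 3.74 CPM (SD, n = 3), a log2 fold change of -0.92 (SE 0.15, adjusted p = 0.0001561). The last exon of BLM, of 1065 bases, overlaps an antisense gene over 443 bases. RMI1, which binds BLM and its topoisomerase, was at 56.9, 44.04 and 66.5 CPM without Dox and 38.3, 35.9 and 34.8 CPM with Dox. The groups did not overlap, with a log2 fold change of -0.63 (SE 0.16, adjusted p = 0.007688), which without Control replicate 3 was -0.48 (adjusted p = 0.0590). Its partner RMI2 was at -0.45 (95% interval -0.83 to -0.07, adjusted p = 0.07567), and the nuclease pair MUS81 and EME1 had values of -0.35 (-0.77 to 0.06) and -0.39 (-1.13 to 0.35). Without Control replicate 2, RMI2 (adjusted p = 0.0160) and MUS81 (adjusted p = 0.0483) passed the test, and without Control replicate 3 they were at -0.30 (adjusted p = 0.311) and -0.14 (adjusted p = 0.692). EME1 was between -0.69 (without OE replicate 2) and -0.08 (without OE replicate 3).

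POLQ, the polymerase of theta-mediated end joining, which rejoins resected ends that recombination does not repair, was at 94.8, 70.1 and 77.2 CPM without Dox and 45.0, 64.0 and 38.5 CPM with Dox. All its libraries with Dox were below those without, with a log2 fold change of -0.73 (SE 0.18, adjusted p = 0.005225).

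Partners that work as a pair were compared by their ratio. The ratio of 2 genes within a library does not depend on the scaling, and 6 pairs were compared by an exact permutation test (two-sided), which with 3 against 3 libraries cannot go below p = 0.1. ATRIP counts were 0.403, 0.563 and 0.575 of those of ATR without Dox and 0.290, 0.224 and 0.197 with Dox, a ratio change of -1.12 on the log2 scale (exact p = 0.1, adjusted p = 0.2). The ratio of BRCA2 to PALB2 was 4.42, 6.07 and 4.15 without Dox and 2.85, 2.94 and 2.30 with Dox (-0.84, exact p = 0.1, adjusted p = 0.2). The ratio of RAD50 to MRE11 was 7.97, 9.53 and 10.1 without Dox and 17.9, 11.6 and 12.8 with Dox (0.60, exact p = 0.1, adjusted p = 0.2). In these 3 pairs the groups did not overlap, but no pair passed the test, which this design is too small to allow. The last exons of ATRIP and RAD50 overlap other genes on the same strand, so that the ratios with these genes are uncertain. The ratio of BRCA1 to BARD1 changed by -0.37 (exact p = 0.2, adjusted p = 0.3) and its groups overlapped, as did those of FANCI to FANCD2 (0.10, exact p = 0.7) and EME1 to MUS81 (-0.08, exact p = 1).

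Summed over the 41 genes, the level was 2872, 2696 and 3102 CPM without Dox and 2280.5, 2472 and 2072 CPM with Dox. Without ATM the sum was 2838 ± 199.7 CPM without Dox and 2104 ± 171.5 CPM with Dox (SD, n = 3).

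Some other genes of the same pathways fell. Of 46 tested genes of a further list of recombination and Fanconi genes, 12 fell (26.1%, beside 13.7% of all genes tested), none rose by edgeR's quasi-likelihood test or by DESeq2, and 16 had an unadjusted p under 0.05, with a median of -0.23. The 4 with the smallest p were MDC1, the scaffold that ATM phosphorylation recruits around breaks (-1.09, SE 0.14, adjusted p = 2.54461e-05), the helicase RECQL4 (-0.75, adjusted p = 0.000283929), the helicase subunit MCM8 (-0.62, adjusted p = 0.0017761) and CLSPN, the adaptor between ATR and CHEK1 (-0.73, adjusted p = 0.00317887). MDC1 was at 191, 213 and 183 CPM without Dox and 101, 103 and 72.8 CPM with Dox, with no overlap.

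The genes of proliferation moved with them. All 12 genes of a replication licensing and fork list fell (100%), with a median of -0.77. Of 10 mitosis genes 9 fell (90%), with a median of -1.08. Over all genes tested the share that fell was 13.7% and the median 0.02. By flow cytometry, the paper reports a smaller share of the same transgenic cells in S phase and a larger share in G1 phase with Dox. That was measured after a longer time with Dox than in these libraries. In bulk RNA, fewer cells in S and G2 phase and less RNA per cell cannot be told apart. The part of proliferation in the fall of the recombination genes was not tested. In other repair pathways, 1 of 12 end joining genes fell and 1 rose (8.33% each, median -0.19), and 2 of 7 mismatch repair genes fell (28.6%) and none rose (median 0.06), beside 13.7% and 11.9% of all genes tested that fell and rose. Of 16 nucleotide excision repair genes, 0 passed edgeR's quasi-likelihood test, 0 passed DESeq2 and 1 had an unadjusted p under 0.05 (median -0.09).

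**Figure D4:**
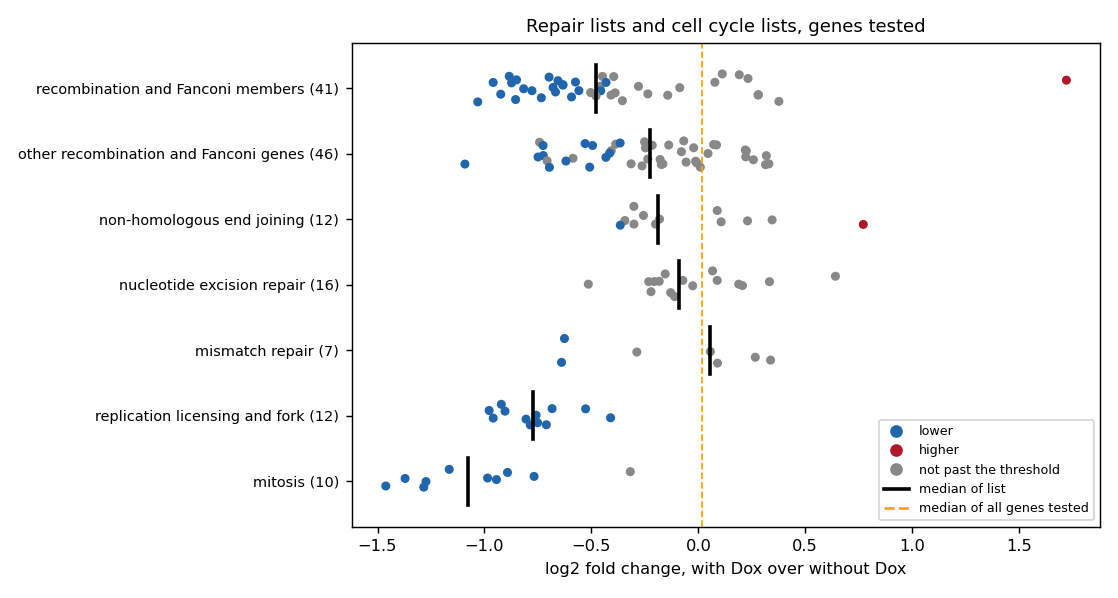
Log2 fold change (with Dox against without Dox) of each tested gene in the 41 recombination and Fanconi genes and in 6 other lists, 1 point per gene with the list's median as a bar. The median is -0.48 for the 41 genes, -0.77 for replication and -1.08 for mitosis, and lies between -0.23 and 0.06 for the other 4 lists.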

How the data were processed

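Per the labels and the study's methods, 3' mRNA libraries (QuantSeq; the labels and the methods differ on the forward or reverse kit) were sequenced, 3 from cells without and 3 from cells with Dox. The submitters' processing notes name CASAVA 1.8.2, FastQC, STAR, HTSeq, edgeR and the hg38 genome. The annotation and the use of strand in counting are not given in the sources used here. The deposited counts are whole reads per gene as the authors made them, unnormalized, and the deposited normalized values are a scaled signal of the same counts for each library, by a method not given in the sources used here.

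From the counts, rows that name no gene (32.5 to 39.5% of reads on no gene, 3.05 to 3.37% ambiguous) were left out. Libraries held 3394672 to 7271771 counts, so that 3 counts are 0.413 to 0.884 CPM before TMM scaling, and these limits cover counting error only. Genes were filtered with filterByExpr, scaled by TMM and tested with edgeR 4.0.16 (glmQLFit and glmQLFTest, R 4.3.3) over all 6 libraries, with Benjamini-Hochberg adjustment over all 12233 genes tested, a threshold of 0.05 and unadjusted 95% intervals. The fit was tested on simulated data. Alternatives were DESeq2 size factors, upper-quartile scaling, library totals alone, no filter, at least 10 counts in every library, DESeq2 1.42.0, edgeR's exact test, limma 3.58.1 on log2(deposited normalized value + 1) (27 rows that could not be paired between files were left out), a replicate block and leaving out each library. Partner ratios used counts + 0.5 with an exact permutation test (scipy 1.17.1).

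The members and lists were chosen with earlier results of these data known, and no list was tested as a whole. The 12 members with the smallest p and 1 more for a role without any are given by library; other members that passed have a fold change and the rest an interval. MRE11 was matched through RefSeq synonyms (MRE11A). Gene coordinates and exons come from GENCODE 44 (hg38), in which the last exon of 3 members overlaps a gene on the same strand and of 7 on the opposite strand only, and promoters from RefSeq GRCh38.p14, 1 per gene nearest the canonical start. The study's protein, metabolite and growth assays were not analysed here.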

Additional observations from a re-analysis of the deposited data

Results flagged for a closer look

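The share of reads on no annotated gene, which enters no comparison above, was higher with Dox in every library, with a lowest value of 35.6% with Dox beside a highest value of 34.6% without Dox, and this difference was not tested.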

How the results depend on the processing

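Of the 21 genes that fell, 12 kept the call under all 15 alternatives (FANCB, FANCG, FANCD2, BRCA1, RAD51C, XRCC2, RAD51AP1, RAD54B, BLM, ATRIP, CHEK1 and POLQ), and so did the rise of ATM. The number that fell was 16 to 25 under other scalings, filters and tests and 13 to 21 when 1 library was left out. Of all genes tested, 9.29% to 15.4% fell in the former fits and 9.71% to 13.1% in the latter. The number of members that rose was 2 with library totals alone and otherwise 1. The median of the 41 genes was -0.55 to -0.36. FANCA, UBE2T and XRCC3 lost the call most often, and BARD1, TOPBP1 and RAD54L under 3 or 4 alternatives each; the cause was not tested. MRE11, BRCA2, BRIP1 and RMI2 passed the test without a filter. The sign turned for values near 0. FANCF was 0.035 with library totals alone and -0.24 to 0.15 when 1 library was left out, where RAD50 was -0.052 to 0.20, CHEK2 -0.30 to 0.040, the ratio of FANCI to FANCD2 -0.062 to 0.25 and that of EME1 to MUS81 -0.44 to 0.38. The labels give both conditions the same replicate numbers but do not say whether same-numbered libraries were paired (correlations of same-numbered deviations -0.01, 0.23 and 0.09). With the number as a replicate block, 25 members fell, beside 15.4% of all genes tested, and 1 rose. Then 3537 genes passed in place of 3125, and the 4 members gained were MRE11 (adjusted p = 0.0226), BRCA2 (0.0378), BRIP1 (0.0276) and RMI2 (0.0318). The depth limits genes such as XRCC3, RAD54L, RAD51B, RAD51D and EME1, which lay under 15 CPM.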

Other observations

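Among the end joining genes, the 2 that passed the test were picked out after their values were seen. LIG4, the ligase of non-homologous end joining, rose from 14.9, 14.6 and 15.5 CPM without Dox to 24.8, 29.8 and 23.1 CPM with Dox (log2 fold change 0.77, adjusted p = 0.00536129, edgeR's quasi-likelihood test). XRCC5, a subunit of the Ku heterodimer that binds broken ends, fell by 0.36 on the log2 scale (adjusted p = 0.0467096).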
